A study of Mus musculus with 12 samples.

Results

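The 10 genes described here mark the epithelial or the mesenchymal state of a cell, namely Cdh1, Epcam, Krt8, Krt18, Vim, Cdh2, Zeb1, Snai1, Snai2 and Twist1. They were chosen by symbol, and each matched 1 of the 30630 mouse Ensembl genes listed for every tumor. CT-26 cells are a BALB/c mouse line of colon carcinoma. RNA was sequenced from 12 subcutaneous tumors grown from these cells, 6 of control mice and 6 of swimming mice, all male BALB/c mice 4 to 6 weeks old when bought, with 1 tumor per mouse. All mice received the cells in Matrigel under the skin of the right flank and were divided into the groups 3 days later. Mice of the swimming group then had 2 swims daily of up to 30 min, 6 days per week over 3 weeks. Whole tumors were sequenced, so RNA of host cells is read together with that of CT-26 cells, and tumors of 6 out of 10 mice per group were taken at random.

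Epithelial cells hold together through E-cadherin and EpCAM and carry intermediate filaments of paired keratins, such as keratin 8 with keratin 18. In the epithelial to mesenchymal transition (EMT), these proteins are replaced by N-cadherin and vimentin. The transcription factors Snail, Slug, Zeb1 and Twist1 drive that switch, in part by binding E-box sequences in the promoters of epithelial genes and repressing them. Carcinoma cell lines lie at many points between both states.

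Values are FPKM, reads per gene scaled by gene length and by depth, so that levels of different genes can be set side by side. Absolute depth is unknown. Relative to control 1, set to 1, the depth of the other tumors was estimated as the commonest ratio of the values of weak genes, which 246 to 362 genes per tumor shared. It was 0.694 in control 2 and from 0.871 to 0.973 in the remaining tumors. Swimming was set against control on the scale of log2(FPKM + 1), by limma's moderated test over 19018 genes that reached 0.1 FPKM in 6 or more tumors. Single genes were also tested by two-sided exact permutation over all 924 ways to split 12 tumors evenly, where the lowest possible p is 0.00216. Of the 10 genes, 9 passed this filter and Epcam did not.

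The CT-26 tumors expressed Vim and Twist1 strongly and the epithelial adhesion genes at or near 0. The other mesenchymal genes lay near the level of the keratins Krt8 and Krt18 or below it. By mean over 12 tumors, Vim led with 567 ± 88.7 FPKM (SD, n = 12), above 99.5% of the genes tested, and Twist1 followed with 79.7 ± 6.4 FPKM, above 96.4% of them. Krt8, Snai1, Snai2, Cdh2 and Krt18 had means of 17.6, 11.6, 10.4, 9.97 and 9.72 FPKM. In the same order, these were above 82.7, 75, 72.6, 71.7 and 71.1% of the genes tested. Zeb1 had a mean of 5.28 FPKM, above 58.2% of them, Cdh1 of 0.289 FPKM and Epcam of 0.0422 FPKM. Vim was above Twist1, and Zeb1 above Cdh1, in 12 of 12 tumors without overlap of their ranges, and Krt18 was above Zeb1 and Cdh1 above Epcam in 12 of 12 tumors with overlap. Among the genes near 10 FPKM the order was not stable, since Snai1 was above Snai2 in 8 tumors, Snai2 above Cdh2 in 8 and Cdh2 above Krt18 in 7. The mean of Krt8 rests on control 4. Without this tumor it was 7.4 FPKM, and Krt8 was above Snai1 in only 4 of 12 tumors.

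**Figure D1:**
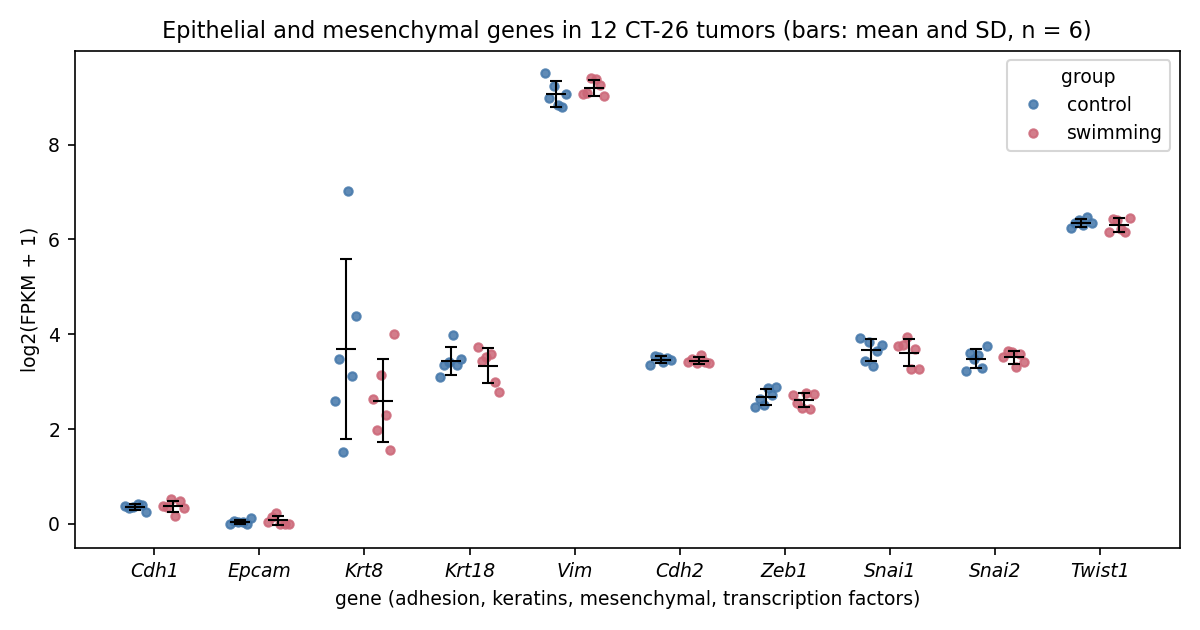
Level of each of the 10 genes as log2(FPKM + 1), with 1 point for each tumor, blue for the control group and red for the swimming group, and black bars for the mean and SD of 6 tumors. Vim and Twist1 are highest, Cdh1 and Epcam are near 0, the groups overlap for each gene, and Krt8 is the gene with the widest spread.

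Cdh1 encodes E-cadherin, the calcium-dependent adhesion protein of epithelial adherens junctions (chromosome 8, 106603351 to 106670246 in GRCm38, ENSMUSG00000000303). It was between 0.191 and 0.34 FPKM in the control group, with a median of 0.294, and between 0.12 and 0.43 FPKM in the swimming group, with a median of 0.285. The lowest and the highest of the 12 tumors, swimming 4 and swimming 3, were both in the swimming group, and the groups overlapped. Swimming gave a log2 fold change of 0.01 (95% interval from -0.12 to 0.14; limma's adjusted p = 0.986, exact permutation p = 0.838). The sign of this value changed with the processing.

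Epcam encodes the epithelial cell adhesion molecule (chromosome 17, 87635979 to 87651129, ENSMUSG00000045394). It was listed at 0 in 5 of 12 tumors and reached 0.0873 FPKM in control tumors and 0.177 FPKM in the swimming group, in swimming 3. Only 2 tumors, both in the swimming group, were at 0.1 FPKM or above. Depth is unknown, so a listed 0 gives no upper limit, and no test was made. Swimming 3 thus held the highest value of both Cdh1 and Epcam.

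Cdh2 encodes N-cadherin, the cadherin that mesenchymal and neural cells use (chromosome 18, ENSMUSG00000024304). In the control group it ranged from 9.22 to 10.7 FPKM with a median of 10.1, and in the swimming group from 9.48 to 10.9 FPKM with a median of 9.61. The level of Cdh2 was 22.2 to 90.9 times that of Cdh1 in each of the 12 tumors, with a median ratio of 34.3. No member varied less between tumors: the SD of Cdh2 on the log2 scale was 0.07, and of 5252 genes within a factor of 2 of its level 4.57% had a smaller SD. The log2 fold change was -0.02 (95% interval from -0.13 to 0.09; limma's adjusted p = 0.978, exact permutation p = 0.606).

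Vim encodes vimentin, the intermediate filament protein of mesenchymal cells (chromosome 2, 13573927 to 13582826, ENSMUSG00000026728). Its values lay between 442 and 724 FPKM in the control group, with a median of 519, and between 517 and 677 FPKM in the swimming group, with a median of 578. Control 1 had the highest value of all tumors and control 5 the lowest, so that the control group enclosed the swimming group. In the swimming group, 5 of the 6 tumors were above the control median, with a log2 fold change of 0.14 (95% interval from -0.12 to 0.39; limma's adjusted p = 0.93, exact permutation p = 0.312). Leaving out control 1 gave a log2 fold change of 0.22 with an unadjusted p of 0.0458 in limma's test, the only alternative in which any of the 10 genes had an unadjusted p below 0.05. Control 1 also had high scores of the fibroblast list (0.95) and of the adipocyte list (2.76). These scores are the mean, over those listed genes that passed the filter, of the log2 value minus its mean over 12 tumors. Their relations with Vim across the tumors are given below, and their part in the value of Vim in control 1 itself was not tested. In bulk tumors, fewer cells of a type and less RNA per cell cannot be told apart.

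Keratins 8 and 18 can pair in 1 filament, though not only with each other. Their genes lie close together on chromosome 15 (Krt8, 101996698 to 102004482, ENSMUSG00000049382, and Krt18, 102028180 to 102032027, ENSMUSG00000023043). Their RNA differed in how much it varied between tumors. Krt18 ranged from 7.57 to 14.8 FPKM with a median of 9.37 in control tumors and from 5.89 to 12.3 FPKM with a median of 10.1 in swimming tumors. Krt8 ranged from 1.86 to 129 FPKM with a median of 8.94 in control tumors and from 1.95 to 14.9 FPKM with a median of 4.53 in swimming tumors. The highest tumor of Krt8, control 4, was 69.4 times the lowest, control 3, while the highest of Krt18 was 2.5 times the lowest. Next after control 4 came control 6 with 19.9 FPKM and swimming 6 with 14.9 FPKM. Krt8 was above Krt18 in 3 control tumors and in 1 swimming tumor, and the ratio of Krt8 to Krt18 ran from 0.194 in control 3 to 8.76 in control 4. The SD of Krt8 on the log2 scale was 1.52, larger than that of 99.8% of 4272 genes within a factor of 2 of its level, and for Krt18 it was 0.32, larger than that of 90.7% of 5268 genes.

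**Figure D2:**
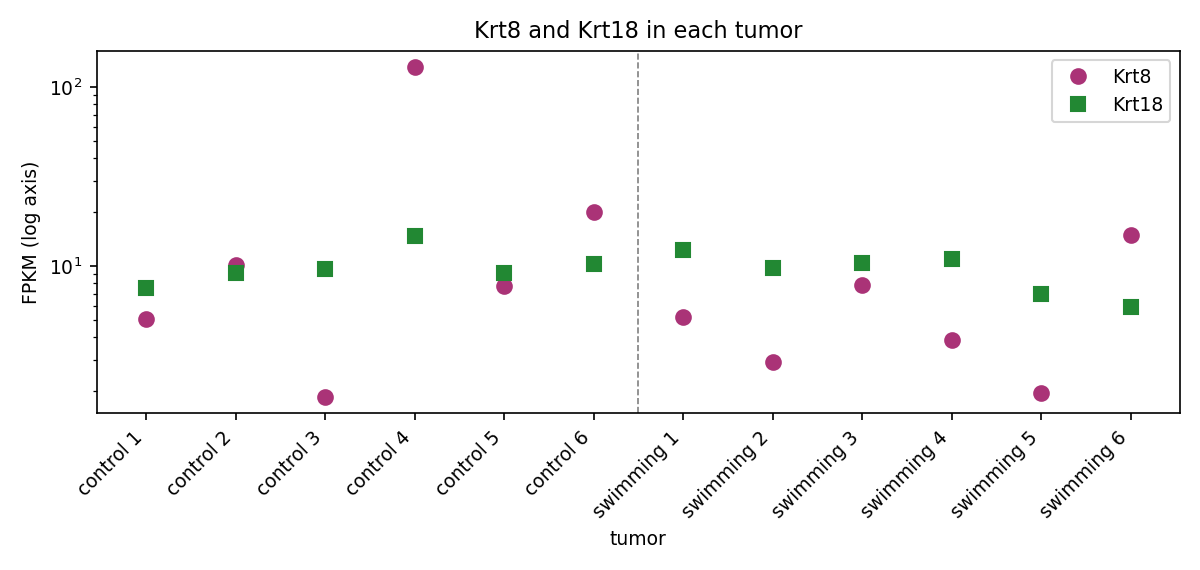
FPKM of Krt8 (circles) and Krt18 (squares) on a log axis in each of the 12 tumors, with a dashed line between the control and the swimming group. Krt18 stays between 5.89 and 14.8 FPKM, whereas Krt8 runs from 1.86 to 129 FPKM and is highest in control 4.

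Krt8 was lower in the swimming group by the mean, at 29 ± 49.5 FPKM (SD, n = 6) for control and 6.11 ± 4.78 FPKM (SD, n = 6) for swimming, but the SD among control tumors exceeded this gap. Its log2 fold change was -1.09 (95% interval from -2.71 to 0.52; limma's adjusted p = 0.911, exact permutation p = 0.247), and -0.43 without control 4. For Krt18 the log2 fold change was -0.1 (95% interval from -0.48 to 0.27; limma's adjusted p = 0.967, exact permutation p = 0.608). A processed pseudogene, Krt8-ps, is 98.6% identical to Krt8 over 941 bases, so reads can be shared with it. It was at 0.78 FPKM in control 4 and at most 0.214 FPKM in the other 11 tumors. An exon of Gm36026 overlaps Krt8 on the other strand, and it was at 0.369 FPKM in control 4 and at most 0.189 FPKM elsewhere. Both stayed far below Krt8, and their part in its spread was not tested.

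The promoters of Epcam, Krt8 and Krt18 are shown because the repressors measured here, Snail, Slug and Zeb1, bind the E-box CAGGTG, which reads CACCTG on the other strand. Sequences run from 250 bases before to 50 bases after the start site, are from RefSeq on GRCm38.p6 and are written on the strand of the gene, with each E-box in capitals. Epcam is at chr17:87635729-87636028 on the plus strand, Krt8 at chr15:102004293-102004592 on the minus strand and Krt18 at chr15:102027966-102028265 on the plus strand.
Epcam: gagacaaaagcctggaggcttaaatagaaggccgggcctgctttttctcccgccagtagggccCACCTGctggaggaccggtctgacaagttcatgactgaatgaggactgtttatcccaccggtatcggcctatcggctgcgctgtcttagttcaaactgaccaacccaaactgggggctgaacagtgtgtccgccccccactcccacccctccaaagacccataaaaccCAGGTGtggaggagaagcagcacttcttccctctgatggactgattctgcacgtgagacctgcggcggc
Krt8: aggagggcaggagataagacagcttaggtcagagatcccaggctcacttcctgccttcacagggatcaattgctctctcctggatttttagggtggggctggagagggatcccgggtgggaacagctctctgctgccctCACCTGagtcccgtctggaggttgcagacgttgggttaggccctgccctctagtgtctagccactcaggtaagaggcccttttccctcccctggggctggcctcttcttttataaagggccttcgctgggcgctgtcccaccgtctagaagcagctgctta
Krt18: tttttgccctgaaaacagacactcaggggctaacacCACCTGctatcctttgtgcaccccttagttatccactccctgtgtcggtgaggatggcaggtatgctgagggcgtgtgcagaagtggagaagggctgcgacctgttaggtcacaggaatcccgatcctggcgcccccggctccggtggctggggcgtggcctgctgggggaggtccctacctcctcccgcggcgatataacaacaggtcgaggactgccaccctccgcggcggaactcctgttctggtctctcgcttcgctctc
Epcam, listed at or near 0, held 2 of these E-boxes, beginning 187 and 19 bases before the start site. Krt8 held 1 at 111 bases and Krt18 held 1 at 214 bases before it. The RefSeq start of Krt8 used here lies inside the gene as GENCODE draws it, so by the coordinates given above the E-box of Krt8 is within the gene. That of Krt18 also lies inside its gene, but its E-box is before the gene. Promoters of 6 of the 10 genes were matched, and none was found for Cdh1, Cdh2, Zeb1 and Snai2. Snai1 also held 1 E-box, and Vim and Twist1 held 0. The stretch read for Vim, chr2:13574061-13574360, lies wholly inside the gene as GENCODE draws it, so the sequence before that gene was not read. Of all 32851 promoters of this length, 20.2% held at least 1 and 2.88% held at least 2. A match describes these letters only.

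Of the 4 transcription factors among the 10 genes, Twist1, a basic helix-loop-helix factor of mesoderm and EMT, had the highest RNA level (chromosome 12, 33957671 to 33959829, ENSMUSG00000035799). It ranged from 74.3 to 88.2 FPKM with a median of 80.4 in control tumors and from 70 to 86.9 FPKM with a median of 78.6 in swimming tumors. In each tumor it was 12.5 to 18.8 times Zeb1, with a median of 15.6. Swimming 1, swimming 5 and swimming 4 were below all control tumors, and the remaining swimming tumors lay within the control range. The log2 fold change was -0.05 (95% interval from -0.2 to 0.09; limma's adjusted p = 0.948, exact permutation p = 0.463).

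Snai1 (Snail; chromosome 2, 167538195 to 167542814, ENSMUSG00000042821) and Snai2 (Slug; chromosome 16, 14705852 to 14709385, ENSMUSG00000022676) encode zinc finger repressors of Cdh1. Snai1 ran from 9.1 to 14.2 FPKM with a median of 12.1 in control tumors and from 8.57 to 14.3 FPKM with a median of 12.2 in swimming tumors. Snai2 ran from 8.38 to 12.5 FPKM with a median of 10.5 in control tumors and from 8.88 to 11.5 FPKM with a median of 10.7 in swimming tumors. The swimming tumors lay within the control range for Snai2, while for Snai1 swimming 4 and swimming 6 were below it and swimming 3 above it. Their log2 fold changes were -0.05 (95% interval from -0.34 to 0.24; limma's adjusted p = 0.979, exact permutation p = 0.729) and 0.03 (95% interval from -0.17 to 0.23; limma's adjusted p = 0.981, exact permutation p = 0.766).

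Zeb1 encodes a zinc finger and homeodomain repressor of epithelial genes (chromosome 18, ENSMUSG00000024238). It lay between 4.49 and 6.36 FPKM in the control group, with a median of 5.39, and between 4.4 and 5.77 FPKM in the swimming group, with a median of 5.22. The groups overlapped, and the log2 fold change was -0.07 (95% interval from -0.27 to 0.13; limma's adjusted p = 0.949, exact permutation p = 0.47). One of its exons overlaps Gm10125 on the other strand, which reached at most 0.118 FPKM.

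In the comparison of both groups, limma called 0 of the 9 genes tested at an adjusted p of 0.05, against 0% of all genes tested. An unadjusted p below 0.05 was found for 0 of 9, against 5.56% of all genes tested, and the values of the groups overlapped for each of them, whereas they did not overlap in 0.147% of all genes. By the reading of the study's cut-off as a fold change above 2 with an unadjusted p below 0.05, 0 of 9 passed, against 0.105%. The study applied its cut-off to transcripts, and here it was applied to genes. Adding 1 to FPKM also makes the fold changes of low genes smaller, so this share is not that of the study. The median log2 fold change was -0.05 over the 9 genes and 0.0039 over all genes tested. By sign, Cdh1, Vim and Snai2 were above 0 and the other 6 genes below. Exact permutation p lay between 0.247 for Krt8 and 0.838 for Cdh1. On the scale of log2(FPKM + 1), the intervals of Krt18, Vim, Cdh2, Zeb1, Snai1, Snai2 and Twist1 lay within 0.48 of 0, and that of Krt8 did not. For Cdh1, at 0.289 FPKM, adding 1 narrows the interval, which therefore sets no limit on its fold change in FPKM.

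**Figure D3:**
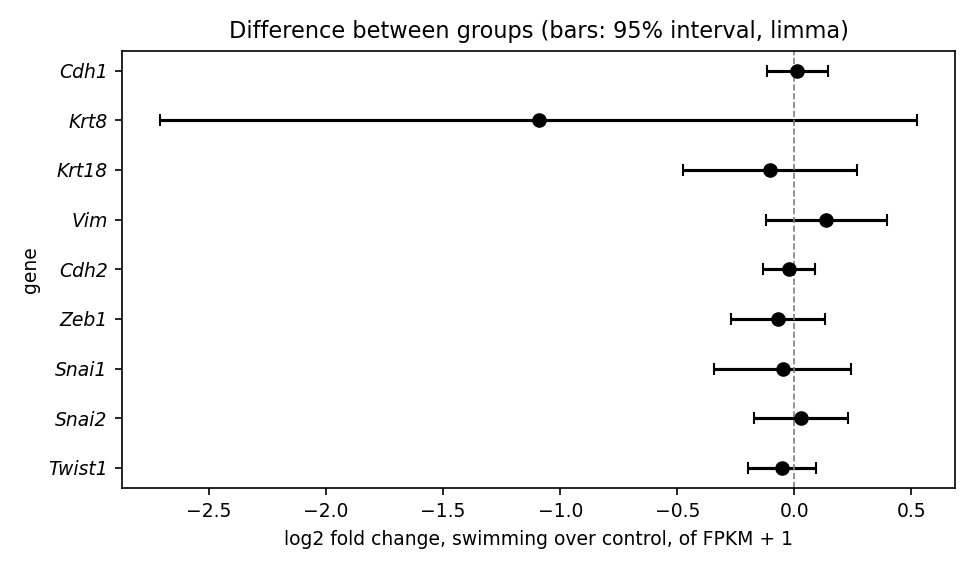
Log2 fold change of FPKM + 1 (swimming over control) of the 9 genes tested, with 95% intervals from limma as bars and a dashed line at 0. Each interval includes 0, and that of Krt8, from -2.71 to 0.52, is the widest.

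Other genes of the epithelial and mesenchymal programs were read from lists given by gene function. A mean of at least 1 FPKM was reached by 41.8% of all genes in the files. It was reached by 25 of 27 genes for mesenchymal matrix, adhesion and cytoskeleton and 16 of 19 other EMT transcription factors. In the list of signals that induce EMT, which also holds repressors of such signals, 19 of 27 genes reached it. Of the epithelial genes, it was reached by 9 of 21 genes of junctions and cadherin partners, 3 of 12 other keratins and 2 of 19 regulators of the epithelial program. Below 0.1 FPKM were 9, 8 and 13 genes of these 3 epithelial lists and 0, 3 and 0 genes of the other 3 lists.

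**Figure D4:**
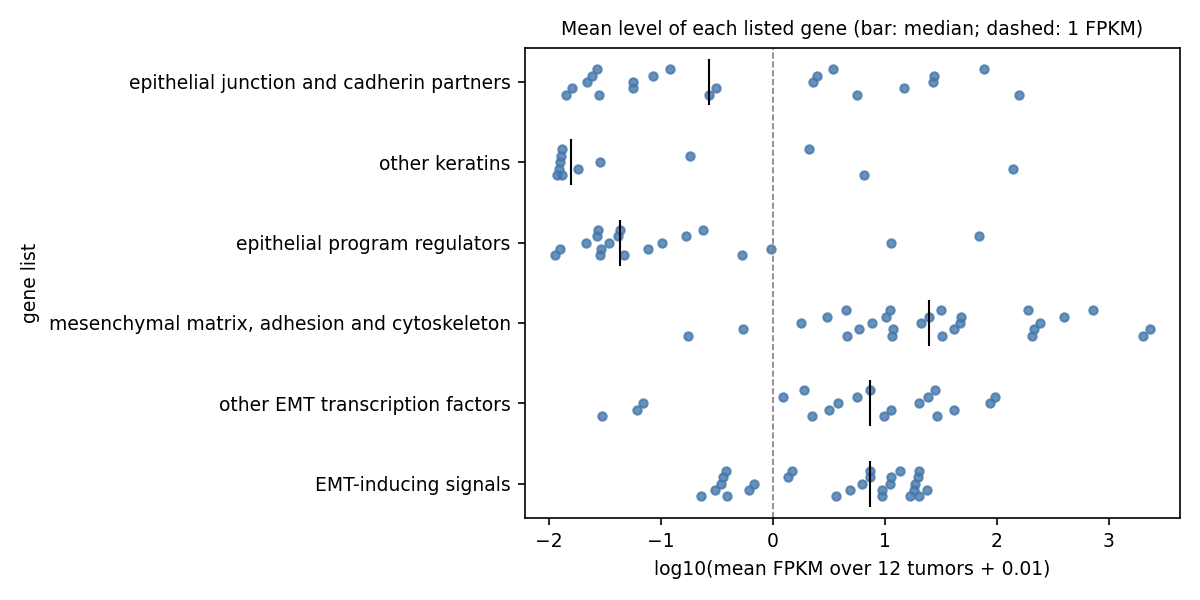
Mean level over 12 tumors of each gene of 6 lists, as log10(FPKM + 0.01), with 1 point for each gene, a bar for the median of the list and a dashed line at 1 FPKM. Most mesenchymal genes lie right of the line, and the epithelial lists are split, with Ctnna1, Krt20 and Klf4 as their highest genes.

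Lgals1, the gene of galectin-1, was the highest of the mesenchymal list with 2344 ± 185 FPKM (SD, n = 12). Hmga2, a chromatin protein of embryonic and tumor cells, led the other transcription factors with 95.8 ± 12.1 FPKM, and Ski, a repressor of TGF-beta signaling, led the signals with 23.7 ± 2.08 FPKM. On the epithelial side, the cytoplasmic partners of cadherins were abundant although Cdh1 was not. Ctnna1, the gene of alpha-catenin, had 159 ± 4.88 FPKM and Ctnnb1, the gene of beta-catenin, 76.7 ± 4.45 FPKM. These proteins also bind N-cadherin. In contrast, the desmosomal gene Dsp and the tight junction gene Ocln had means of 0.0145 and 0.0184 FPKM. Klf4, a factor of epithelial differentiation that other cells use too, led its list with 69.5 ± 6.72 FPKM. Klf5, the other regulator that reached 1 FPKM, had 11.4 ± 2.09 FPKM, and Muc1 had a mean of 0.966 FPKM. The splicing regulator Esrp2 and the repressor of EMT Ovol2 had means of 0.017 and 0.0118 FPKM.

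Krt20, a keratin of differentiated intestinal epithelium, was the exception among epithelial genes. It had 140 ± 29.4 FPKM (SD, n = 12) and was above Krt8 in 12 of 12 tumors. It ranged from 115 to 194 FPKM with a median of 156 in control tumors and from 99.8 to 152 FPKM with a median of 127 in swimming tumors. Each of the 6 swimming tumors was below the control median, yet the groups overlapped. Swimming gave a log2 fold change of -0.29 (standard error 0.14; limma's unadjusted p = 0.0607 and adjusted p = 0.889, exact permutation p = 0.0996). Of the 8 genes of colon epithelium that were read, Krt20 and Lgals4 (2.32 FPKM) were above 1 FPKM, and Clca1 and Krt19 had means of 0.704 and 0.173 FPKM. The other 4 were below 0.1 FPKM, among them Cdx2 at 0.0934 FPKM, Vil1 at 0.0342 FPKM and Muc2 at 0.0215 FPKM. A further 4 listed genes were not analysed here.

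Of the lists, 1 gene was lower and 1 gene was higher in the swimming group at an unadjusted p below 0.05, and 0 at an adjusted p below 0.05. Over all genes tested, 2.46% were lower and 3.11% were higher at that unadjusted threshold. The gene that was lower was Itga5, the alpha chain of the fibronectin receptor, 1 of 27 genes of the mesenchymal list. It ran from 33.9 to 56.8 FPKM with a median of 48.2 in control tumors and from 34.8 to 39.9 FPKM with a median of 36.9 in swimming tumors. Itga5 had a log2 fold change of -0.31 (standard error 0.096; limma's unadjusted p = 0.00595 and adjusted p = 0.889, exact permutation p = 0.0173). The gene that was higher was Tnf, the inflammatory cytokine, 1 of 27 signals, with 0.724 to 1.69 FPKM in control tumors and 1.22 to 2.4 FPKM in swimming tumors. Its log2 fold change was 0.43 (standard error 0.13; limma's unadjusted p = 0.0046 and adjusted p = 0.889, exact permutation p = 0.0152). At this low level the added 1 makes the fold change of Tnf smaller, and it was 0.71 with a pseudocount of 0.1 and 0.76 with 0.01. For the epithelial junction genes 0 of 12 tested, for the other keratins 0 of 4, for the epithelial regulators 0 of 6 and for the other EMT transcription factors 0 of 16 had an unadjusted p below 0.05. The median log2 fold changes of the 6 lists lay between -0.03 and 0.0075.

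The tumors were also read for other cells that could hold these transcripts. Fibroblast genes reached at least 1 FPKM in 14 of 15 cases, with Col1a2 at 141 FPKM and Col3a1 at 100.2 FPKM, and their summed level ran from 239.7 to 947.4 FPKM in control tumors and from 284.1 to 922.5 FPKM in swimming tumors. Leukocyte and macrophage genes did so in 12 of 12 cases, led by Lyz2 and C1qa at 813 and 379 FPKM, with sums from 1505 to 2109 and from 1571 to 2052 FPKM. Endothelial genes, led by Cdh5 and Pecam1 at 14.8 and 9.02 FPKM, had sums from 41 to 74.6 and from 41.7 to 67.8 FPKM. Skeletal muscle genes, led by Acta1 and Mylpf, had sums from 2.28 to 233.9 and from 1.5 to 329.6 FPKM, and adipocyte genes, led by Cfd and Plin4, from 2.39 to 148.5 and from 1.86 to 27.9 FPKM. Of 8 keratinocyte genes, Krt10 and Sfn had means of 2.09 and 1.08 FPKM, and Krt14, Krt1, Krt15 and Lor were listed at 0 in 9, 11, 11 and 9 tumors. The sum of the 8 colon epithelium genes, nearly all Krt20, ran from 117.7 to 196.6 and from 103.6 to 155.8 FPKM. In control 4, where Krt8 was highest, the keratinocyte score, which rests on Krt10 and Sfn alone, was -0.04, and the colon epithelium score, which rests on 4 of 8 genes, was 0.07. The leukocyte score of control 4 was 0.17, the highest of the control tumors. Over 12 tumors, Krt8 and this score had a Pearson's r of 0.21 (permutation p = 0.488, adjusted p 0.782). Within the control and the swimming group r was 0.64 and -0.42. The part of leukocytes in the Krt8 value of control 4 itself was not tested. None of the 7 marker lists held a gene at an unadjusted limma p below 0.05, and their scores differed between the groups by -0.07 to 0.4 (exact permutation p from 0.167 to 0.959).

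Relations across the 12 tumors were computed for 36 pairs of the 9 genes and for 63 pairs of a gene with a marker score. After Benjamini-Hochberg adjustment over these 99 relations, 0 had an adjusted p below 0.05 for Pearson's r or for Spearman's rho, and 11 had an unadjusted permutation p below 0.05 for r. The strongest was between Krt8 and Zeb1 (r = 0.69, permutation p = 0.00693; rho = 0.64, permutation p = 0.0298; adjusted p 0.422 and 0.516). Without control 4 and control 6, r fell to 0.46 (permutation p = 0.181), and inside each group, control first, it was 0.81 and 0.4. Without control 4 alone r was 0.63, and without control 6 alone it was 0.67. Krt8 and its partner Krt18 had an r of 0.42 (permutation p = 0.177; rho = 0.22, permutation p = 0.483; adjusted p 0.647 and 0.95), which was -0.24 without control 4 and control 6. Their r differed in sign between the groups, at 0.85 in control and -0.27 in swimming tumors. Vim was higher where Zeb1 was lower (r = -0.64, permutation p = 0.0258; rho = -0.61, permutation p = 0.0396; adjusted p 0.422 and 0.516), with r of -0.45 (permutation p = 0.195) without control 1 and swimming 3, and -0.75 and -0.4 within the groups.

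With the fibroblast score, Vim had an r of 0.63 (permutation p = 0.031; rho = 0.51, permutation p = 0.0951; adjusted p 0.422 and 0.693) and Twist1 an r of -0.59 (permutation p = 0.0448; rho = -0.67, permutation p = 0.0203; adjusted p 0.422 and 0.516). Leaving out the 2 outermost tumors of each gene gave r of 0.41 for Vim (permutation p = 0.243) and -0.64 for Twist1 (permutation p = 0.0451). Within the control and the swimming group, r was 0.69 and 0.61 for Vim and -0.84 and -0.5 for Twist1. Twist1 also had an r of -0.62 with the endothelial score (permutation p = 0.0286; rho = -0.65, permutation p = 0.0263; adjusted p 0.422 and 0.516), and of -0.63 (permutation p = 0.0431) without the same tumors. Vim had an r of 0.58 with the adipocyte score (permutation p = 0.0417; rho = 0.45, permutation p = 0.139; adjusted p 0.422 and 0.781), and of 0.19 (permutation p = 0.603) without control 1 and swimming 3. Below the unadjusted p of 0.05 for r were also Cdh1 with Cdh2 (r = -0.58, permutation p = 0.044, rho = -0.5) and Zeb1 with Snai1 (r = -0.6, permutation p = 0.0421, rho = -0.62). Without the 2 outermost tumors of Cdh1 and of Zeb1, r was -0.28 and -0.56. By group, control first, it was -0.2 and -0.82 for the cadherins and -0.58 and -0.73 for Zeb1 with Snai1. The rest were Snai2 with the keratinocyte score (r = 0.59) and Cdh2 and Zeb1 with the adipocyte score (both -0.57). None of these passed the adjustment. The points of each relation share library, depth and tissue makeup.

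By Pearson's r of log2(FPKM + 1) over 12 tumors, the gene most like Krt8 among all genes tested was Srpk1 (r = 0.96), followed by Mpzl3 and Zfp341 (r = 0.92 and 0.9). Srpk1 was at 14.8 FPKM in control 4 and between 11.4 and 13 FPKM in the other tumors, and without control 4 the r with Krt8 was 0.89 for Srpk1, 0.75 for Mpzl3 and 0.75 for Zfp341. Krt18 was most like Cyp2c55, a cytochrome P450 gene (r = 0.94), with 26.1 FPKM in control 4 and at most 20.6 FPKM elsewhere, and then Gnai3 and Tns3 (r = 0.91 and 0.87). For Cdh1 these were Raet1d, Hoxb7 and Gm15696 (r = 0.94, 0.83 and 0.82). For Vim they were Hsp90ab1, Gm7308 and Gbe1 (r = 0.92, 0.9 and 0.9), and for Cdh2 Zfp78, Gm37238 and Gm6594 (r = 0.9, 0.87 and 0.86). Among the transcription factors, Zeb1 was most like Gm48062, Rps24-ps3 and Rpl23a-ps3 (r = 0.95, 0.92 and 0.91), Snai1 like Gm20632, Eif3d and Gm45085 (r = 0.91, 0.91 and 0.89), Snai2 like Ccl25, Tmem234 and Leng8 (r = 0.92, 0.9 and 0.87) and Twist1 like Map2k3os, Dpy30 and Tnfrsf22 (r = 0.84, 0.84 and 0.83). None of the 9 genes was among the 3 most like another of them. These genes were picked as the highest r among all genes tested and carry no test.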

How the data were processed

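The authors sequenced total RNA of 12 tumors after ribosomal RNA was removed. Per the labels and the methods, reads were trimmed, mapped with HISAT2 2.0.5 and quantified with StringTie 1.3.3. The authors deposited FPKM per Ensembl gene, 1 file per tumor without pooling, so length and depth had already been divided out. The methods name hg38 and the submitters' processing notes also list GRCm38, while the identifiers are of the mouse. Symbols and coordinates were taken by identifier from GENCODE M21 on GRCm38, which named 30542 of 30630 genes. Whether strand was used in counting is not given in the sources used here.

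Groups were taken from the sample labels. Nothing was left out. Genes reaching 0.1 FPKM in 6 or more tumors were compared on log2(FPKM + 1) with limma 3.58.1 (R 4.3.3; lmFit, eBayes with trend, Benjamini-Hochberg over 19018 genes), as the study names limma, and single genes by two-sided exact permutation (Python 3.11.15, scipy 1.17.1). Correlations were tested with 100000 permutations. The limma step was checked on simulated data. Copies were searched with blastn in the GENCODE transcripts (at least 90% identity over 300 bases). Alternatives were pseudocounts of 0.1 and 0.01, no filter, a filter of 1 FPKM, quantile normalization, trimmed mean scaling, eBayes without trend, a replicate block and leaving out each tumor.

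The 10 genes, the lists and the tests were chosen with earlier results of these data known. Named are the 10 genes, the 3 genes most like each, the highest gene of each list, the 2 highest of each marker list and listed genes with an unadjusted p below 0.05. Other names were chosen after their values were seen. FPKM carry no read numbers, so no counting interval could be given. Listed genes without a row, such as Esrp1, Krt5 and Cdx1, were not analysed here.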

Additional observations from a re-analysis of the deposited data

Results flagged for a closer look

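Dixon's ratio was computed in 50 groups of 6 values to find single tumors that stand apart, and 3 were found. Chance gives 2.5 if values are normally distributed. Krt8 and Krt18 were flagged on FPKM, not on the log2 scale, so this number is no firm guide for them. Krt8 was 129 FPKM in control 4, with 19.9 FPKM in the next control tumor. Krt18 was 14.8 FPKM in the same tumor, with 10.2 FPKM in the next. On the scale of log2(FPKM + 1), the highest, next and lowest control tumors were at 7.03, 4.39 and 1.52 for Krt8. For Krt18 they were at 3.98, 3.49 and 3.1. Whether control 4 stands apart for these genes on that scale was not tested. The adipocyte score was 2.76 in control 1, with 0.03 in the next control tumor.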

How the results depend on the processing

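No alternative gave any of the 9 genes an adjusted p below 0.05. Leaving out each tumor, the number of the 9 genes at an unadjusted p below 0.05 was between 0 and 1, the 1 being Vim without control 1. Leave-one-out fits gave 0 to 3 genes of all tested at an adjusted p below 0.05 (3 without control 4, 2 without swimming 1), and 10 to 41 genes past a fold change of 2 with an unadjusted p below 0.05 (10 without swimming 5, 41 without swimming 1), against 0 and 20. Pseudocounts of 0.1 and 0.01 gave 138 and 229 such genes. At an unadjusted p below 0.05, the pathway lists held 2 genes, 4 without a filter and 2 to 9 when a tumor was left out (9 without control 3, 6 without swimming 1, and 4 without control 2, control 6 or swimming 6). With the replicate block they held 5 genes. Same-numbered tumors come from different mice and had a mean correlation of deviations of -0.12, against 0.0246 for other pairs, and 0 of 12 tumors matched best with its own number. With the block, 0 of the 9 genes had an unadjusted p below 0.05, and the smallest was 0.157. The log2 fold change of Cdh1 was -0.0078 with a pseudocount of 0.01 and -0.0035 with quantile normalization, and it ran from -0.017 to 0.054 when a tumor was left out, negative without control 6, swimming 3 or swimming 5. It could not be fitted with a filter of 1 FPKM. That of Krt18 ran from -0.18 to 0.0055, positive without control 4 or swimming 6. For Snai1 it ran from -0.11 to 0.021, positive without control 1, swimming 4 or swimming 6, and for Snai2 from -0.022 to 0.083, negative without control 1 or control 5. That of Krt8 ran from -1.53 without control 3 to -0.43 without control 4. Vim, Cdh2, Zeb1, Twist1, Itga5 and Tnf kept their sign in each alternative. The cause was not tested. Tnf was 0.71 and 0.76 with pseudocounts of 0.1 and 0.01. Depth is unknown, so no counting limit could be given for the low values of Cdh1 and Epcam.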
